A study of Mus musculus with 6 samples.

Results

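Checkpoint and costimulatory molecules set how strongly a T cell responds once its antigen receptor is engaged. CD28 and ICOS add a positive signal, whereas CTLA-4 competes with CD28 for CD80 and CD86, and PD-1, BTLA, TIGIT, LAG-3 and TIM-3 dampen activation. PD-1 is engaged by its ligands PD-L1 and PD-L2 on other cells, and PD-L1 is a textbook target of IFN-γ and IRF1. The 10 genes described here were taken by name from a table of 41388 genes: the ligands Cd274 (PD-L1) and Pdcd1lg2 (PD-L2), the inhibitory receptors Pdcd1 (PD-1), Btla, Ctla4, Tigit, Lag3 and Havcr2 (TIM-3), and the costimulatory receptors Cd28 and Icos. The rule for their choice named genes and used no expression value, although earlier results of these data were known. Of the 10 genes, 9 had a mean normalized count of at least 10 and were among the 11379 genes tested; Havcr2 lay below that level.

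The transcriptomes came from 3 WT and 3 Irf1-/- cultures of Th9 cells, IL-9-producing helper T cells, exposed to IFN-γ. CD4+ T cells of spleen and lymph nodes, naive by the study's account and isolated by magnetic negative selection per the labels, were taken from adult C57BL/6 mice or from mice lacking Irf1, the gene of interferon regulatory factor 1. Cells of both genotypes were kept for 2 days with IL-2, IL-4, TGF-β and IFN-γ after priming by antibodies against CD3 and CD28. Neither group therefore represents T cells without IFN-γ. The general culture protocol also lists an antibody against mouse IFN-γ, whereas the IFN-γ added was from rat. Other Th9 cultures of the study held both. The sources used here do not say whether the antibody was left out of these cultures. The Irf1 deletion was carried by the whole animal. WT mice were purchased and Irf1-/- mice bred in the study's own facility, and the mice are described as matched for sex and age and the samples as independent and biological, without the number of mice behind a culture.

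The libraries held between 5639788 and 13348230 reads on genes, and replicate 3 was the deepest in each genotype. Irf1 itself, the targeted gene, fell from 2845 ± 163 to 1662 ± 163 normalized counts (SD, n = 3), with no overlap between the groups. Libraries labelled Irf1-/- thus kept 58.4% of the WT count; the count covers the whole gene, and which part of it was deleted was not given in the sources used here. Transcripts of 4 Y-linked genes summed to 2301 and 2306 normalized counts in WT replicates 1 and 2 and to at most 11.1 in the other 4 libraries, while Xist was at 2.5 and 6.01 against 16973 to 19403. Sex and genotype were thus partly confounded, against the stated matching for sex, and each tested checkpoint gene is also given for the 4 libraries with Xist. Those are WT replicate 3 alone against the 3 Irf1-/- libraries, so that the spread comes from the Irf1-/- libraries, the lone WT library is assumed to vary like them, and a call lost there does not show that a difference is absent. Replicates 1 and 2 of a genotype differed little from each other (chi-square per degree of freedom of 1.28 in WT and 1.82 in Irf1-/-, against 5.85 to 7.21 for the other pairs within a genotype), though beyond counting noise, and were counted as separate samples. The samples are described as independent, but these values cannot show it; if replicates 1 and 2 were repeats of the same culture, each genotype would hold 2 samples, which is the case the fit with replicates 1 and 2 averaged covers. The markers Cd4, Cd3d, Cd3e and Cd3g together stood at 8051 to 8178 in WT and 7584 to 7850 in Irf1-/- libraries, compared with 20.3 to 41.2 for Cd8a plus Cd8b1, so that markers of the labelled cell type dominated. Of 10 myeloid and dendritic cell markers, 7 were highest in Irf1-/- replicate 2, and their sum was 22.5, 149 and 42.4 in WT and 215, 997 and 19.8 in Irf1-/- replicates 1, 2 and 3.

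Of the 9 tested genes, 2 were lower in Irf1-/- cells at an adjusted p below 0.05 and 0 were higher (limma, Benjamini-Hochberg over all tested genes). They were the ligand gene Cd274 and the receptor gene Btla. Both are inhibitory, as were all the tested genes except Cd28 and Icos. Among all 11379 genes, 12.4% were called lower and 11.4% higher, 23.7% in either direction, so that 2 of 9 lies near the background share. At an unadjusted p below 0.05, Pdcd1 and Cd28 joined them, giving 4 lower and 0 higher, where 18.9% of all tested genes were lower and 17.8% higher at that threshold. The quasi-likelihood test of edgeR on recovered reads called 2 lower and 0 higher, against 12.5% and 11.1% of all genes. DESeq2 called 3 lower and 0 higher, Pdcd1 being the further gene, against 9.32% and 8.28%. The median log2 fold change of the 9 genes was -0.33, against -0.004 for all tested genes. The lowest WT library exceeded the highest Irf1-/- library for 3 of the 9, namely Cd274, Btla and Tigit, and the reverse held for 0; over all tested genes these shares were 20.9% and 19.7%, 40.5% in either direction.

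**Figure D1:**
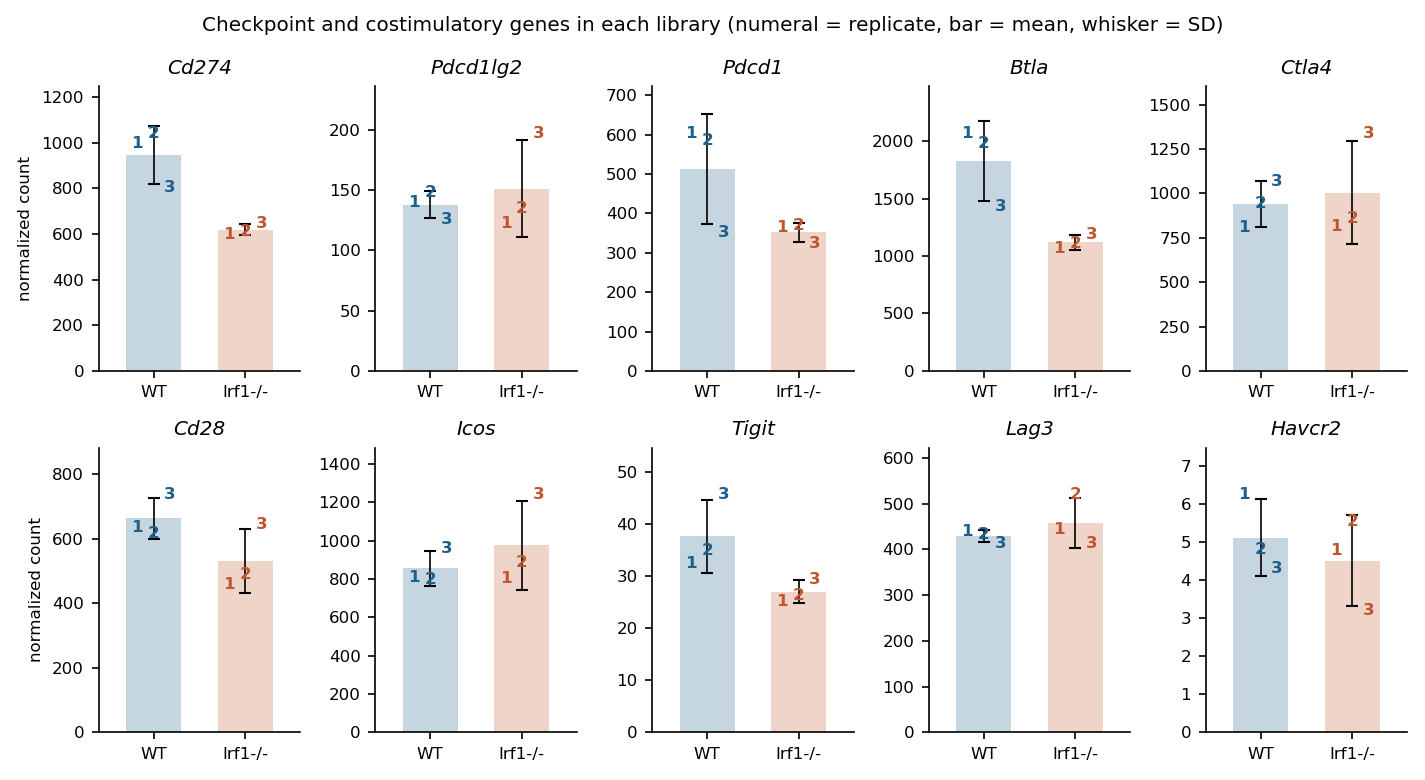
Normalized counts (y axis, a scale of its own per gene, starting at 0) of the 10 genes in WT and Irf1-/- Th9 cells with IFN-γ. Numerals mark replicates, bars the mean of 3 libraries and whiskers the SD. Cd274, Btla and Tigit show no overlap between the genotypes. Replicate 3 of the Irf1-/- group stands above the other Irf1-/- libraries for these genes and for Pdcd1lg2, Ctla4, Icos and Cd28.

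The genes of the PD-1 ligands lie next to each other on chromosome 19 and were set side by side. Cd274 (ENSMUSG00000016496, chr19:29367455-29388095, plus strand, GRCm38) and Pdcd1lg2 (ENSMUSG00000016498, chr19:29410919-29471161, plus strand) are 0.0228 Mb apart. Sequence before the RefSeq starts (GRCm38.p6) is shown because IRF family proteins bind repeats of GAAA, and capitals mark matches on either strand to AANNGAAA, a loose form of that repeat which 23.9% of 32851 RefSeq promoter windows of 300 bases contain. For Cd274, the 30 bases around its match are given (chr19:29367252-29367281), since this stretch is also untranslated first exon of Plgrkt, which runs in the opposite direction and begins 64 bases from the annotated Cd274 gene. For Pdcd1lg2 and the receptor gene Pdcd1, the 250 bases before the start are given (chr19:29410669-29410918, plus strand, and chr1:94052554-94052803, minus strand). Btla, the other gene that fell, is represented by the 228 bases up to its first annotated exon (chr16:45224087-45224314, plus strand), which contain no match.
Cd274: ccgaagcctagTTTCGTTTtttcttaaact
Pdcd1lg2: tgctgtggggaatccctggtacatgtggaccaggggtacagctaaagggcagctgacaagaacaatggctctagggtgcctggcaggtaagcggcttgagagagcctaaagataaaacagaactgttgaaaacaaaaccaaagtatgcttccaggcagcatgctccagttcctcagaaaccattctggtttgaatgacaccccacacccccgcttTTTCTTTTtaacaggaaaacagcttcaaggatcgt
Pdcd1: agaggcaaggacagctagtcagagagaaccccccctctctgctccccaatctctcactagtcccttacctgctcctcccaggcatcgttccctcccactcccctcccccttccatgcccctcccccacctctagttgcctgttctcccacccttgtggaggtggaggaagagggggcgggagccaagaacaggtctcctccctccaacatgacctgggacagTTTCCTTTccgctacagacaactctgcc
Btla: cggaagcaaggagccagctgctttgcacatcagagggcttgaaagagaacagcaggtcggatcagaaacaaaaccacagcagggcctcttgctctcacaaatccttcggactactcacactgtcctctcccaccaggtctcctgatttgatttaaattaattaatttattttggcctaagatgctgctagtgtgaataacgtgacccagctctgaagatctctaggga

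In Cd274 the match lay 175 to 168 bases before the start and read AAACGAAA on the strand opposite to the gene. In Pdcd1lg2 it lay 35 to 28 bases before the start and read AAAAGAAA. Windows existed for 7 of the 10 genes, and 3 of them held this motif, the third being Pdcd1 with AAAGGAAA 28 to 21 bases before its start. The stricter GAAANNGAAA, found in 3.44% of all windows, and TTCNNNGAA, the core of a STAT site, found in 8.3%, were in 0 of the 7; all 3 motifs were searched on both strands, and matches of the first 2 can overlap. Letters of a motif alone do not show that a factor binds there, nor does their absence from this window show the opposite.

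Cd274 encodes PD-L1, which engages PD-1 and also CD80. Normalized counts were 995, 1041 and 802 in WT and 599, 612 and 645 in Irf1-/- replicates 1, 2 and 3. All WT libraries lay above all Irf1-/- libraries, with WT replicate 3 closest to the mutant group. The mean fell from 946 ± 127 to 619 ± 23.5 (SD, n = 3), 65.4% of WT. On the log2 scale this was a difference of -0.60 (SE 0.0924, 95% interval -0.81 to -0.40, adjusted p = 0.00127 in limma), a fold between 0.57 and 0.76. In the 4 libraries with Xist, with WT replicate 3 as the only WT library, the difference was -0.37 with an adjusted p of 0.057, and with Y-linked transcripts as a covariate -0.37 with an adjusted p of 0.0174. When replicates 1 and 2 of each genotype were averaged and counted as 1 sample, it was -0.53 and the adjusted p 0.0512, while within replicate 3 alone it was -0.31. Reads on 511 exon bases of Cd274 could also come from AC119228.1, an annotated gene on the other strand that has no row of its own.

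PD-L2, the product of Pdcd1lg2, is the more narrowly expressed PD-1 ligand. Its gene was read at 140, 148 and 126 normalized counts in WT and at 122, 135 and 197 in Irf1-/- libraries. The groups overlapped, and only replicate 3 of the Irf1-/- group lay above the WT range. Means were 138 ± 11.1 and 151 ± 40.2 (SD, n = 3), a log2 difference of 0.10 (95% interval -0.27 to 0.47, adjusted p = 0.702, limma); without Irf1-/- replicate 3 the sign turned, to -0.10, and in the 4 libraries with Xist the difference was 0.23. The interval leaves room for changes of 0.83-fold to 1.39-fold. The ratio of Cd274 to Pdcd1lg2 was 7.12, 7.04 and 6.36 in WT and 4.92, 4.55 and 3.28 in Irf1-/- libraries, a log2 difference of -0.71. This ratio did not overlap between genotypes, at p = 0.1 in an exact two-sided permutation test (adjusted over 4 ratios 0.133), the smallest that 3 against 3 libraries allow; the 4 ratios were chosen after the values were seen.

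Neighbouring genes on chromosome 19 gave mixed results. Insl6, which encodes an insulin-like peptide and lies before Cd274, fell from 51.6 to 8.98 normalized counts (log2 fold change -2.39, adjusted p = 0.000109). Plgrkt, the plasminogen receptor gene head to head with Cd274, stood at 295, 281 and 260 in WT and 259, 280 and 332 in Irf1-/- libraries, differed by 0.05 on the log2 scale (95% interval -0.18 to 0.28) and was not called. Beyond Insl6, Jak2, the kinase of the IFN-γ receptor, differed by 0.05 and was not called. On the far side of Pdcd1lg2, Ric1 was not called, Ermp1 fell by 0.49 on the log2 scale (adjusted p = 0.00135) and 9930021J03Rik was not called.

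**Figure D2:**
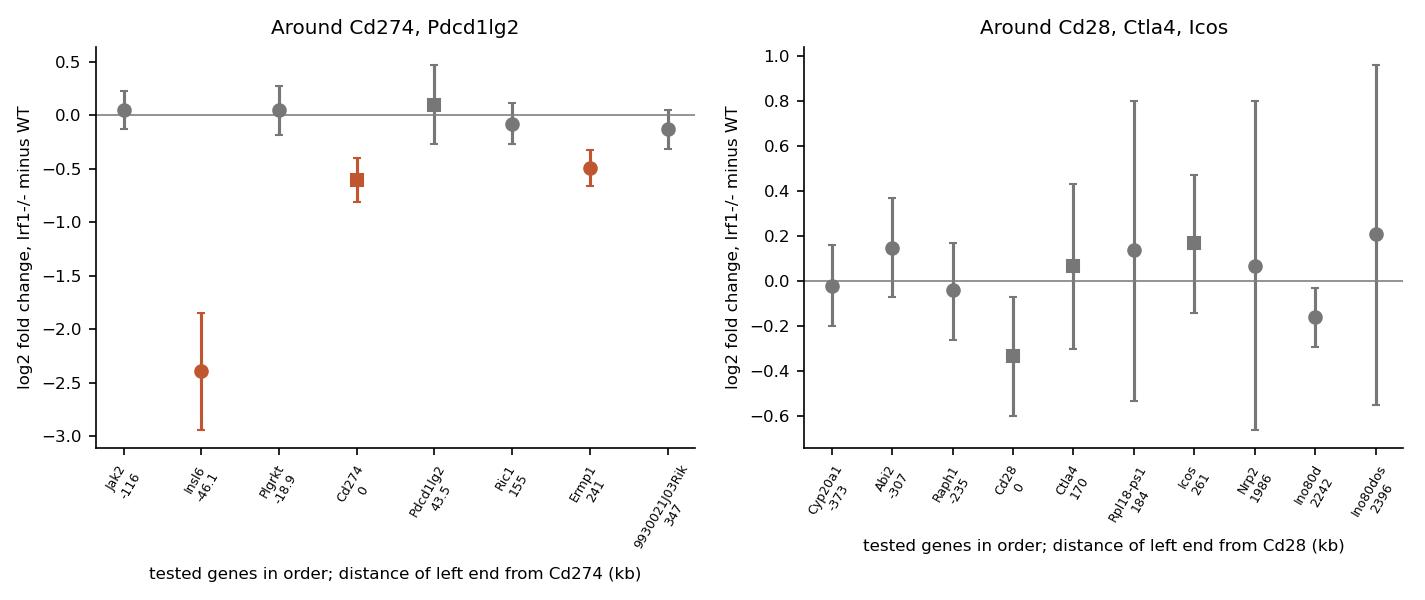
Log2 fold change (y axis, Irf1-/- minus WT) of tested genes around Cd274 and Pdcd1lg2 (left) and around Cd28, Ctla4 and Icos (right), placed in chromosomal order with the distance of each left end in kb under the name; spacing on the x axis is not to scale and the y axes differ. Squares are checkpoint or costimulatory genes, circles their neighbours, whiskers 95% intervals (n = 3 per genotype), and orange an adjusted p below 0.05. Cd274, Insl6 and Ermp1 were lower on the left, and none was called on the right.

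PD-1 is induced on T cells by antigen receptor signals and recruits phosphatases to dampen them. Its gene Pdcd1 (chr1:94038305-94052553, minus strand) was read at 603, 585 and 352 normalized counts in WT and 363, 369 and 323 in Irf1-/- libraries. WT replicates 1 and 2 stood high, and WT replicate 3 lay within the Irf1-/- range. Means were 513 ± 140 and 352 ± 25.1 (SD, n = 3), a log2 difference of -0.51 (95% interval -0.89 to -0.13), which missed the threshold at an adjusted p of 0.055 in limma. In the 4 libraries with Xist the difference was -0.01 (95% interval -0.29 to 0.28). The high values thus coincided with the Y-linked transcripts, and for Pdcd1 the part of sex and that of genotype cannot be told apart in replicates 1 and 2. DESeq2 on recovered reads placed Pdcd1 past the threshold (adjusted p = 0.0103), as did limma without a filter on low values (0.0371), without WT replicate 3 (log2 fold change -0.76, adjusted p = 6.68e-05) and with only replicates 1 and 2 (-0.70, adjusted p = 9.3e-11).

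BTLA, an inhibitory receptor of lymphocytes, binds the TNF receptor family member HVEM, which Tnfrsf14 encodes. Btla (ENSMUSG00000052013, chr16:45224315-45257670, plus strand) was read at 2067, 1984 and 1432 normalized counts in WT and 1063, 1107 and 1185 in Irf1-/- libraries. No overlap was seen, and WT replicate 3 was again the WT library closest to the mutant ones. The mean fell from 1827 ± 345 to 1118 ± 61.9 (SD, n = 3), 61.2% of WT, with a log2 fold change of -0.69 (SE 0.117, 95% interval -0.95 to -0.43, adjusted p = 0.00227, limma). In the 4 libraries with Xist, again with 1 WT library, it was -0.36 (adjusted p = 0.0532), with the Y-linked covariate -0.36 (adjusted p = 0.015) and with replicates 1 and 2 averaged -0.59 (adjusted p = 0.0752). Within replicate 3, the genotypes differed by -0.27.

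Tnfrsf14 itself fell more than Btla. Its normalized counts were 182, 198 and 161 in WT and 74, 58.2 and 67.1 in Irf1-/- libraries, a log2 fold change of -1.43 (adjusted p = 6.4e-05), and the call held in every alternative with a test. The ratio of Btla to Tnfrsf14 was 11.3, 10 and 8.89 in WT and 14.4, 19 and 17.7 in Irf1-/- cells, again without overlap (exact permutation p = 0.1, adjusted 0.133). In its RefSeq window, Tnfrsf14 held the stricter repeat as GAAAATGAAA, 64 to 55 bases before the start. Beyond the checkpoint genes, only Tnfrsf14, Cd80, the receptor gene Cd226 and Insl6 were searched, all of which had fallen. Cd80 held no stricter repeat, and Cd226 and Insl6 had no window.

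Ctla4, Cd28 and Icos lie together on chromosome 1, at chr1:60887000-60915832, chr1:60716800-60773359 and chr1:60977927-61000320, all on the plus strand. Ctla4 was read at 806, 945 and 1070 normalized counts in WT and 815, 858 and 1338 in Irf1-/- libraries. Replicate 3 was highest in each genotype, and the groups overlapped throughout. The difference was 0.07 on the log2 scale (95% interval -0.30 to 0.43, adjusted p = 0.808, limma), between 940 ± 132 and 1004 ± 290 (SD, n = 3), and it turned to -0.13 in the 4 libraries with Xist.

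Cd28 stood at 636, 618 and 736 in WT and 460, 490 and 645 in Irf1-/- libraries. Each Irf1-/- library lay below the WT library of the same number, but Irf1-/- replicate 3 exceeded WT replicates 1 and 2. Means were 664 ± 63.7 and 532 ± 99.8 (SD, n = 3), with a log2 difference of -0.33 (95% interval -0.60 to -0.07) and an adjusted p of 0.0686 in limma, above the threshold. Without Irf1-/- replicate 3 the value was -0.48 and passed it, and in the 4 libraries with Xist it was -0.49 (adjusted p = 0.118). The ratio of Cd28 to Ctla4, which compete for CD80 and CD86, was 0.789, 0.654 and 0.688 in WT and 0.564, 0.57 and 0.482 in Irf1-/- libraries. These ratios did not overlap (log2 difference -0.40, exact permutation p = 0.1, adjusted 0.133).

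Icos, the costimulatory receptor of effector and follicular helper T cells, was read at 807, 798 and 961 in WT and 800, 886 and 1238 in Irf1-/- libraries. The groups overlapped, with Irf1-/- replicate 3 above all others. Its log2 difference was 0.17 (95% interval -0.14 to 0.47, adjusted p = 0.423, limma) and -0.01 in the 4 libraries with Xist. None of the 7 other genes placed in this stretch of chromosome 1 was called; the nearest, Raph1 and Rpl18-ps1, differed by -0.04 and 0.14, the latter a pseudogene whose reads may be shared with its parent gene.

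Foxp3, the lineage factor of regulatory T cells, which carry much CTLA-4, ICOS and TIGIT, moved between the genotypes. Its normalized counts were 190, 172 and 183 in WT and 331, 337 and 343 in Irf1-/- libraries (log2 fold change 0.89, adjusted p = 5.8e-05). Of the other regulatory T cell markers, Ikzf4 rose (0.36, adjusted p = 0.00153), Ikzf2 fell (-0.89), and Lrrc32 was not called. The sum of the 4 markers was 2798 to 3333 in WT and 2575 to 2752 in Irf1-/- libraries. Most of it came from Ikzf2 (1577, 1718 and 2039 in WT, 886, 893 and 1095 in Irf1-/- libraries) and Ikzf4. Its fall thus reflects Ikzf2 and hides the rise of Foxp3 and Ikzf4. In bulk RNA, a changed number of such cells and a changed amount of RNA per cell cannot be told apart. The number of regulatory T cells that entered the cultures was not measured here. The part of these cells in the values of Ctla4, Icos and Tigit was not tested.

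TIGIT, which binds the nectin family member CD155 in competition with the costimulatory receptor CD226, was weakly transcribed. Tigit (chr16:43648867-43664146, minus strand) was read at 32.4, 34.9 and 45.5 normalized counts in WT and 25.1, 26.3 and 29.4 in Irf1-/- libraries. Every Irf1-/- value lay below every WT value, yet the difference of -0.45 on the log2 scale (95% interval -0.93 to 0.02) had an adjusted p of 0.152 in limma, and it passed the threshold in none of the alternatives tried. In the 4 libraries with Xist the difference was larger, at -0.74 (95% interval -1.44 to -0.03, adjusted p = 0.197), and it was also -0.74 with the Y-linked covariate (adjusted p = 0.135). CD226 is encoded by Cd226, and its gene fell from 368, 345 and 333 to 138, 141 and 251 (log2 fold change -1.03, adjusted p = 0.00364, limma). The value was -0.41 within replicate 3. The call was lost in the libraries with Xist and with replicates 1 and 2 averaged. The ratio of Cd226 to Tigit overlapped between genotypes, at 11.3, 9.9 and 7.32 against 5.52, 5.37 and 8.54 (exact permutation p = 0.2). Pvr, the gene of CD155, stood at 344, 343 and 377 in WT and 355, 330 and 347 in Irf1-/- libraries.

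LAG-3 resembles CD4 and binds MHC class II. Lag3 (chr6:124904361-124911705, minus strand) was read at 439, 433 and 414 in WT and 443, 519 and 413 in Irf1-/- libraries. Only Irf1-/- replicate 2 stood apart. The log2 difference was 0.09 (95% interval -0.11 to 0.29, adjusted p = 0.511, limma), without that library it was -0.003, and in the 4 libraries with Xist it was 0.14. This is the narrowest interval among the 9 genes and spans folds of 0.93 to 1.22.

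Havcr2 encodes TIM-3, a receptor of terminally activated Th1 cells. The gene (chr11:46454935-46481255, plus strand) had 5, 4 and 7 reads in WT and 4, 4 and 5 reads in Irf1-/- libraries, equal to 6.24, 4.81 and 4.3 against 4.78, 5.55 and 3.2 normalized counts. These values lay close to the level of 3 reads, which was 1.84 to 4.16 normalized counts depending on the library, and a difference was not detectable at this depth. Havcr2 lies 7.29 Mb from Irf1 on chromosome 11. Among its nearest tested neighbours, Timd2, another gene of the TIM family, rose from 183 to 396 normalized counts (log2 fold change 1.08, adjusted p = 0.00108), Fam71b rose by 0.89 (adjusted p = 0.00836) and Rack1, a ribosomal scaffold protein gene, by 0.23 (adjusted p = 0.00778), whereas Med7 and Gm12183 were not called; Gm12183 and Rack1 lie 2297 and 2345 kb away.

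**Figure D3:**
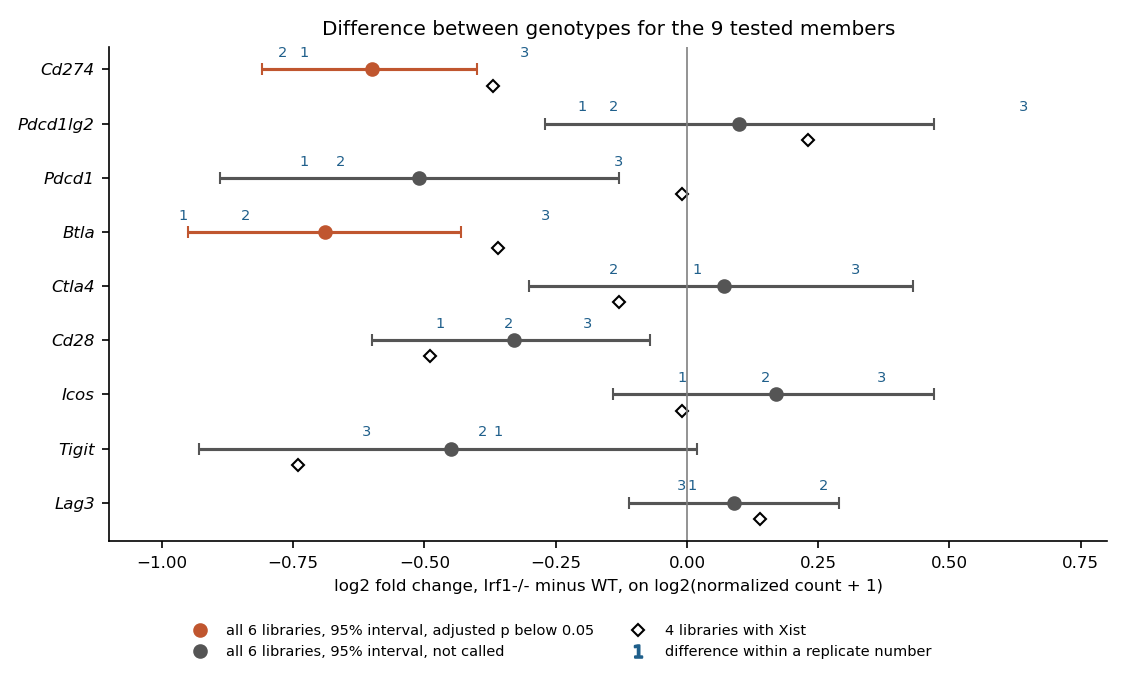
Difference between Irf1-/- and WT cells for the 9 tested genes (x axis, log2 of the normalized count plus 1). Circles and whiskers are limma estimates with 95% intervals over all 6 libraries, orange with an adjusted p below 0.05; diamonds are estimates from the 4 libraries with Xist, and numerals the difference between libraries of the same replicate number. For Cd274, Pdcd1 and Btla the replicate 3 difference (-0.31, -0.13 and -0.27) is closer to 0 than those of replicates 1 and 2.

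When each level was divided by the exon length of its gene, normalized counts per kilobase ranked Btla first in WT cells at 538, followed by Ctla4 at 404, Pdcd1 at 266, Cd274 at 261, Icos at 249 and Lag3 at 203. Cd28 followed at 108, Pdcd1lg2 at 70.3, Tigit at 40.9 and Havcr2 at 1.88. Neighbours in this order whose libraries overlapped were Btla and Ctla4, Pdcd1 and Cd274, and Cd274 and Icos. In Irf1-/- cells Ctla4 led at 431 per kilobase, without overlap with Btla at 329; Icos stood at 284, Lag3 at 217, Pdcd1 at 182 and Cd274 at 171. Below them were Cd28 at 86.8, Pdcd1lg2 at 77, Tigit at 29.3 and Havcr2 at 1.66. Overlapping neighbours in the mutant order were Btla and Icos, Icos and Lag3, Pdcd1 and Cd274, and Cd28 and Pdcd1lg2. Cd274 and Pdcd1, ligand and receptor, thus stood at overlapping levels per kilobase in each genotype.

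The molecules that the checkpoint and costimulatory proteins bind were followed next. Of 13 such counter-receptor and ligand genes, 9 were tested, 3 were lower and 1 was higher, with a median log2 fold change of -0.24. For comparison, 12.4% of all tested genes were called lower and 11.4% higher. Besides Tnfrsf14, Cd80, whose product B7-1 binds CD28, CTLA-4 and PD-L1, fell from 48.7, 87.8 and 86.1 to 17.9, 29.1 and 15.3 normalized counts (log2 fold change -1.79, adjusted p = 0.00183). This call held in every alternative with a test. Its partner Cd86 was at 27.5, 18 and 24.6 against 21.5, 26.3 and 12.8 and was not called. Lgals9, the gene of galectin-9, a lectin that binds TIM-3, fell by 0.35 on the log2 scale (adjusted p = 0.0172), a call lost in 4 alternatives (adjusted p up to 0.119). Lgals3, the gene of galectin-3, which binds LAG-3, rose by 1.08 (adjusted p = 0.0407), but its groups overlapped, at 32.4, 42.1 and 28.9 against 91.9, 111 and 38.3, and 10 of 20 alternatives with a test lost the call. Its highest library was Irf1-/- replicate 2, which was also highest for the myeloid markers given above; their part in the value was not tested.

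Among 26 other genes of co-signalling, most were receptor genes, but ligands and ectoenzymes were included. Of these 26, 20 were tested, 6 were lower and 2 were higher, against 12.4% and 11.4% of all tested genes. Calls numbered 3 lower without WT replicate 2, 2 lower and 2 higher in the libraries with Xist, 7 lower and 4 higher without WT replicate 3, and 9 lower and 4 higher with replicates 1 and 2 only. Cd96, an inhibitory CD155 receptor, fell from 938, 879 and 828 to 572, 564 and 555 normalized counts (log2 fold change -0.64, adjusted p = 0.000104). Cd160, another HVEM receptor, fell by 0.65 (adjusted p = 0.0172) and Cd200, the gene of an inhibitory ligand, by 0.51 (adjusted p = 0.0104), though Cd200 differed by only -0.05 within replicate 3. Ly9, of the SLAM family, fell by 0.21 (adjusted p = 0.0392). Calls were lost in 12 alternatives for Ly9, in 6 for Cd200 and in 5 for Cd160, the libraries with Xist among them for all 3 genes. The genes of the ectoenzymes that turn extracellular ATP into adenosine went in opposite directions: Entpd1 (CD39) fell from 62.4, 67.3 and 82.4 to 9.55, 9.71 and 5.75, and Nt5e (CD73) rose from 183, 148 and 160 to 285, 315 and 329 (log2 fold changes -2.96 and 0.92, adjusted p = 4.2e-05 and 0.000226). Crtam, the receptor of a nectin-like adhesion molecule, rose from 6.24, 3.61 and 2.46 to 20.3, 16.6 and 15.3 (log2 fold change 1.91, adjusted p = 0.00678, limma). Its WT libraries held only 5, 3 and 4 reads, close to the level of 3 reads. With means of 4.1 in WT and 17.4 in Irf1-/- libraries, it passed the filter of 10 only through the Irf1-/- group. A pseudocount of 10 lowered the log2 fold change to 0.96. Cd96, Entpd1, Nt5e and Crtam kept their calls in every alternative with a test.

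**Figure D4:**
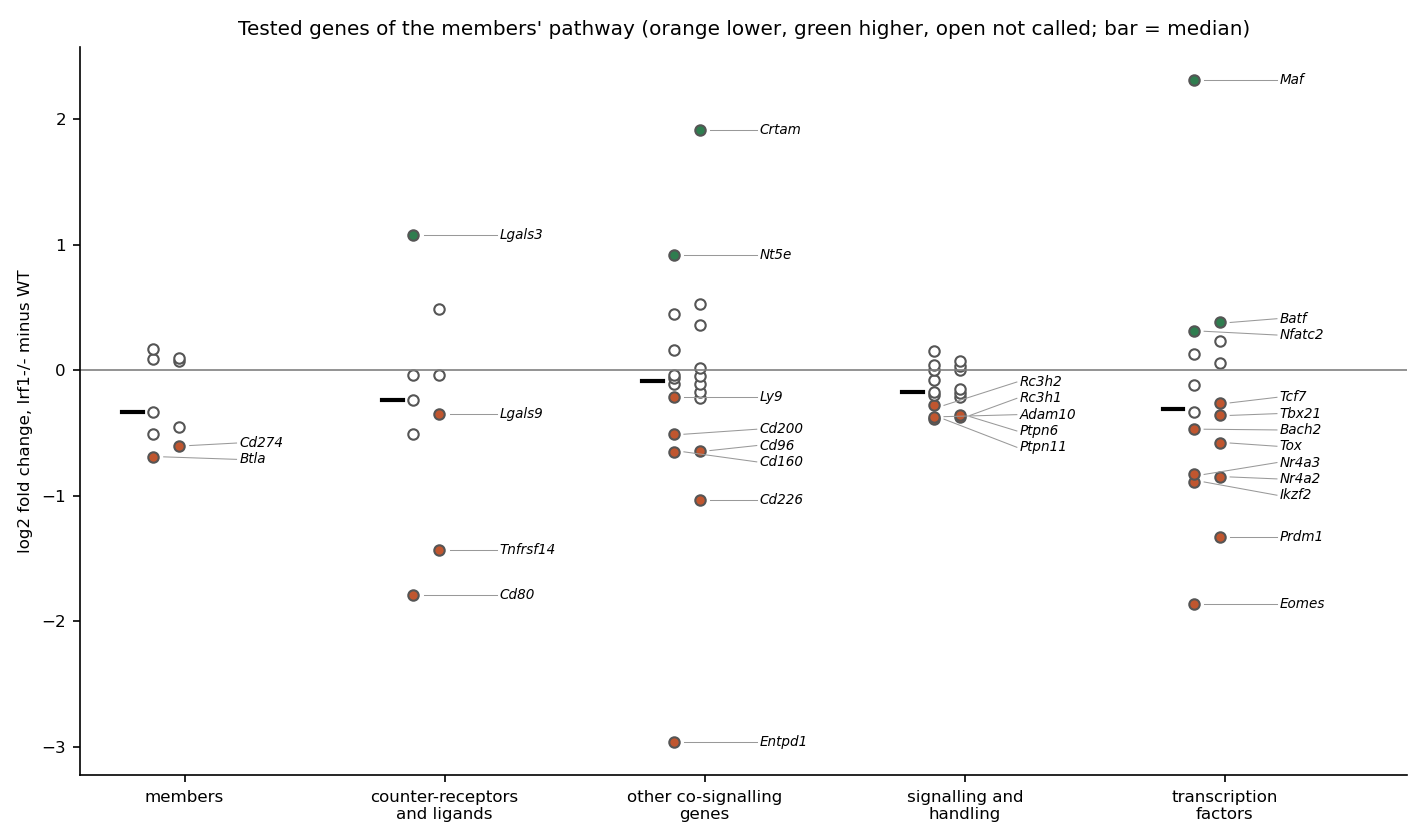
Log2 fold change (y axis, Irf1-/- minus WT) of the tested genes among the checkpoint and costimulatory genes and 4 lists of genes around them (x axis). Each point is a gene, orange if lower and green if higher at an adjusted p below 0.05 and open if not called; the black bar is the median over all tested genes of the list. Called genes that are reported here are drawn and named, and none of the 17 signalling genes was called higher.

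Of 17 genes that carry the signals of these receptors or adjust their levels, all were tested, 5 were lower and 0 were higher. Their median log2 fold change was -0.17, and 1 was higher at an unadjusted p below 0.05 in limma. For all tested genes the shares called were 12.4% lower and 11.4% higher, with 17.8% higher at that unadjusted threshold. Ptpn6 and Ptpn11, the genes of the phosphatases SHP-1 and SHP-2 that inhibitory receptors recruit, fell by 0.37 (adjusted p = 0.00306) and by 0.39 (adjusted p = 0.000932) on the log2 scale. Rc3h1 and Rc3h2, the Roquin genes whose products restrain Icos mRNA, fell by 0.36 and by 0.28 (adjusted p = 0.00254 and 0.0416, the latter lost in 9 of 20 alternatives with a test), and Adam10, a sheddase of LAG-3, fell by 0.37 (adjusted p = 0.00279). In the 4 libraries with Xist, 0 of these 17 genes were called lower, although the log2 fold changes of the 5 genes lay between -0.39 (Rc3h2) and -0.23 (Adam10) there; with replicates 1 and 2 averaged 2 were, and without WT replicate 3, 1 was called higher.

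Of 18 genes of transcription factors linked to checkpoint receptors, all were tested, 10 were lower and 3 were higher, with a median of -0.31; in the libraries with Xist, 2 were called lower and 1 higher, and with replicates 1 and 2 averaged 3 lower and 1 higher. Over all 6 libraries, 12.4% of all tested genes were called lower and 11.4% higher. Nr4a3, an antigen receptor-induced nuclear receptor gene, fell from 7683, 7598 and 8351 to 4206, 4259 and 4892 normalized counts, a log2 fold change of -0.83. Eomes, Prdm1 and Ikzf2 fell by 1.86, by 1.33 and by 0.89 on the log2 scale, Prdm1 from very few counts, 11.2, 14.4 and 18.4 in WT, and with its call lost in 11 of 19 alternatives with a test (adjusted p up to 0.206). Nr4a2, Tox, Bach2, Tbx21 and Tcf7 fell by 0.85, by 0.58, by 0.47, by 0.36 and by 0.26. Maf, the c-MAF gene, rose from 79.9, 61.3 and 54.1 to 393, 322 and 263 (log2 fold change 2.31), and Batf and Nfatc2 rose by 0.38 and 0.31. Maf, Nr4a3 and Ikzf2 kept their calls in every alternative with a test.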

How the data were processed

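RNA-Seq was performed on 3 WT and 3 Irf1-/- Th9 cultures with IFN-γ. Per the labels and the study's methods, the authors aligned reads to GRCm38 with STAR 2.4.0b, counted them with featureCounts and normalized them with DESeq2 1.12.3; strand and multi-mapping settings were not given in the sources used here. The signal the authors deposited consists of normalized counts (read counts over DESeq2 size factors), and all nonzero values came back as whole reads within 0.01. Genes were matched to symbols and GENCODE positions by Ensembl identifier (40254 of 41388 had a symbol). Counting error falls with depth, so that replicate 3 of each genotype was the most precise; floors of 3 reads cover counting error only.

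Differences on log2(normalized count + 1) were tested with limma 3.58.1 in R 4.3.3 (eBayes with trend, mean of at least 10, Benjamini-Hochberg adjustment over 11379 genes, threshold 0.05); log2(value + 1) understates changes of low genes. Because the values are normalized, edgeR 4.0.16 and DESeq2 1.42.0 on recovered reads were alternatives. Further alternatives were other pseudocounts, filters and scalings, no trend, a replicate block, each library left out, libraries with Xist only, Y-linked transcripts as a covariate, replicate subsets, and, chosen after seeing the data, replicates 1 and 2 averaged. The fits were tested on simulated data. The checkpoint genes and the lists around them were chosen with earlier results of these data known, from general knowledge. Every checkpoint gene was named, as were called genes of each list, the 3 nearest tested genes on each side of clustered members, and the 3 genes closest in pattern to the called gene with the largest decrease. Values of 3 genes under these rules are not reported here. Cd86, Pvr and Lrrc32 were named after their values were seen.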

Additional observations from a re-analysis of the deposited data

How the results depend on the processing

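Cd274 and Btla were lower in every alternative tried, from -0.75 to -0.31 and from -0.90 to -0.27 on the log2 scale. Both lost their calls in the 4 libraries with Xist, where WT replicate 3 is the only WT library, and with replicates 1 and 2 averaged, where 0 of the 9 genes were called lower. With only replicates 1 and 2, 4 were called lower, and 2085 lower and 1810 higher among all tested genes. Leaving out 1 library gave 2 to 3 called lower and 0 called higher. The genes called lower among all tested numbered 1406, against 807 with no trend, 392 in the libraries with Xist, 772 with the Y-linked covariate, 394 with replicates averaged and 826 to 1472 with 1 library left out; those called higher numbered 1293, against 392, 584, 413 and 799 to 1372 in the last 4. The cause of these shifts was not tested. Signs turned for 4 genes that were not called: Pdcd1lg2 to -0.10 without Irf1-/- replicate 3 and -0.17 with replicates 1 and 2 only; Ctla4 to -0.04 without WT replicate 1, -0.16 without Irf1-/- replicate 3, -0.13 with the Xist libraries or the covariate and -0.06 with replicates 1 and 2 only; Icos to -0.02 without Irf1-/- replicate 3 and -0.01 with the Xist libraries or the covariate; Lag3 to -0.003 without Irf1-/- replicate 2 and -0.01 within replicate 3. With 1 library left out, the highest values of these genes were 0.24, 0.20, 0.30 and 0.16.

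Libraries of the same replicate number deviated together by correlations of 0.09, 0.27 and 0.32 across genes, so the numbers were not taken to pair the cultures, although each library correlated best with its own number. With the replicate number as a block, 4 of the 9 genes were called lower (Cd274, Btla, Pdcd1 and Cd28) and 1 higher (Icos), and 2116 and 1893 of all tested genes.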

Other observations

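Genes of T cell activation that were not part of the groups above also differed. Of 10 such genes, all tested, 6 were lower in Irf1-/- cells and 0 were higher, with a median log2 fold change of -0.39. The shares over all tested genes were 12.4% lower and 11.4% higher. Cd44, the gene of an adhesion receptor of activated cells, fell from 4876, 4739 and 4809 to 3066, 2925 and 3078 normalized counts (log2 fold change -0.67), and Tfrc, the transferrin receptor gene, from 9478, 9513 and 10359 to 7836, 7142 and 7501 (-0.38). Cd69, an early activation marker, and Egr2, a factor induced by antigen receptor signals, fell by 0.47 and by 0.23; the call of Cd69 was lost in the libraries with Xist and that of Egr2 in 8 of 20 alternatives with a test (adjusted p up to 0.283). Il7r, the IL-7 receptor gene of resting and memory T cells, fell by 1.33, a call lost with no trend and with replicates 1 and 2 averaged. Cd44 and Tfrc kept their calls in every alternative with a test.

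The tested genes whose pattern over the 6 libraries lay closest to that of Btla, the called checkpoint gene with the largest decrease, were Tlr9, Cd274 and Cep290, with root mean square differences of 0.078, 0.078 and 0.082 between centred log2 values. Tlr9, a sensor of DNA, was read at only 14.3 and 8.54 normalized counts on average and was not called (adjusted p = 0.147, limma). Cep290, a gene of the primary cilium, fell from 169 to 109 (log2 fold change -0.60, adjusted p = 0.0193). This likeness is a description over 6 libraries that share their genotype groups and their depth.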
